A study of Mus musculus with 18 samples.

Results

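The DNA replication and mitosis genes described here are 50 mouse cell cycle genes, chosen by name from a table of 78317 genes, and all 50 had enough reads to be among the 16544 genes tested. By textbook role, 8 of them regulate passage through G1, 19 act at the G1/S transition or in S phase, and 23 act in G2 or mitosis. RNA was measured by poly(A) RNA-seq in 18 libraries from kidneys of wild-type CD1 mouse embryos at E14. The kidneys were exposed for 4 hours to AAV2, a viral gene carrier, and then grown for 72 hours in a gel of collagen I and Matrigel. Every vector used the broadly active CAG promoter to express the red reporter mCherry together with 2 mir30-type shRNA cassettes, so the scramble groups carried vector and shRNA as well. The Mylk-shRNA vector was aimed at 2 stretches of Mylk (myosin light chain kinase), the Rock1/2-shRNA vector at 1 stretch each of Rock1 and Rock2 (kinases that promote actomyosin contraction), and the scramble-shRNA vector held shuffled versions of the Rock1 and Rock2 targets. After pooling and digestion of the cultures of a condition, a cell sort collected the top 25% of mCherry signal as the positive fraction and the bottom 50% as the negative fraction. The 6 groups were therefore Mylk-shRNA positive and negative, Rock1/2-shRNA positive and negative, and scramble-shRNA positive and negative, each with 3 libraries, 1 from each of 3 litters. How many kidneys were pooled is not given in the sources used here, and low reporter signal does not show that a cell took up no vector.

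Total counts ran from 3121624 to 9662668 in positive libraries and from 3890052 to 12170830 in negative libraries, and the lowest count of any of the 50 genes in any library was 17. Levels of the shRNA targets overlapped between knockdown and scramble libraries. Mylk lay at 168 to 187 deposited CPM (counts scaled to a common library total) in Mylk-shRNA positive libraries and at 181 to 211 CPM in scramble-shRNA positive ones. Rock1 lay at 74.7 to 83.9 CPM in Rock1/2-shRNA positive libraries against 76.5 to 101 CPM in scramble-shRNA positive ones, and Rock2 at 56.2 to 67.7 against 65.0 to 81.9 CPM. All 10 kidney markers examined (Pax2, Pax8, Six2 and others) passed the filter on low counts, with a summed level of 668 to 902 CPM in positive libraries and 786 to 1432 CPM in negative libraries. Markers of other cell types differed strongly between the fractions, as described beside the results.

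Dividing cells commit to a new round in G1, when cyclin D with Cdk4 or Cdk6, and later cyclin E with Cdk2, inactivate the retinoblastoma proteins. This frees E2F factors, which turn on the genes for licensing replication origins, for unwinding DNA and for making nucleotides. A later wave, driven by B-Myb and Foxm1 on the MuvB complex, turns on the genes for chromosome condensation, spindle assembly and cytokinesis. In the embryonic kidney, growth and branching depend on continued division of nephron progenitors, stromal cells and ureteric tip cells.

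The 2 waves are known to be read from different promoter letters, and these were searched in the windows of 250 bases before to 50 bases after the start of each gene in RefSeq annotation of GRCm38.p6. Of the 50 genes, 39 had a window. A gene with more than 1 window counted as matching if any of its windows held the motif. An E2F site, taken as TTTCCCGC, TTTCGCGC, TTTGCCGC or TTTGGCGC on either strand, was found in 7 of 15 G1/S genes (46.7%), 1 of 18 G2/M genes (5.56%) and 1 of 6 G1 regulators (16.7%), against 4.69% of the 10868 tested genes with a window. The CHR (cell cycle genes homology region), taken as TTTGAA on either strand, was found in 13 of 18 G2/M genes (72.2%), 3 of 15 G1/S genes (20%) and 0 of 6 G1 regulators, against 14.4% of the tested genes. The CCAAT box, which often accompanies a CHR, was found in 16 of 18 G2/M genes (88.9%), 10 of 15 G1/S genes (66.7%) and 3 of 6 G1 regulators, against 42.9%. Over all 27025 genes with a window the shares were 2.6% for the E2F site, 20.2% for the CHR and 41.1% for the CCAAT box. Matches of different motifs overlapped each other in 1 case among the 39 genes. A match is a description of letters and not a bound site.

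**Figure D1:**
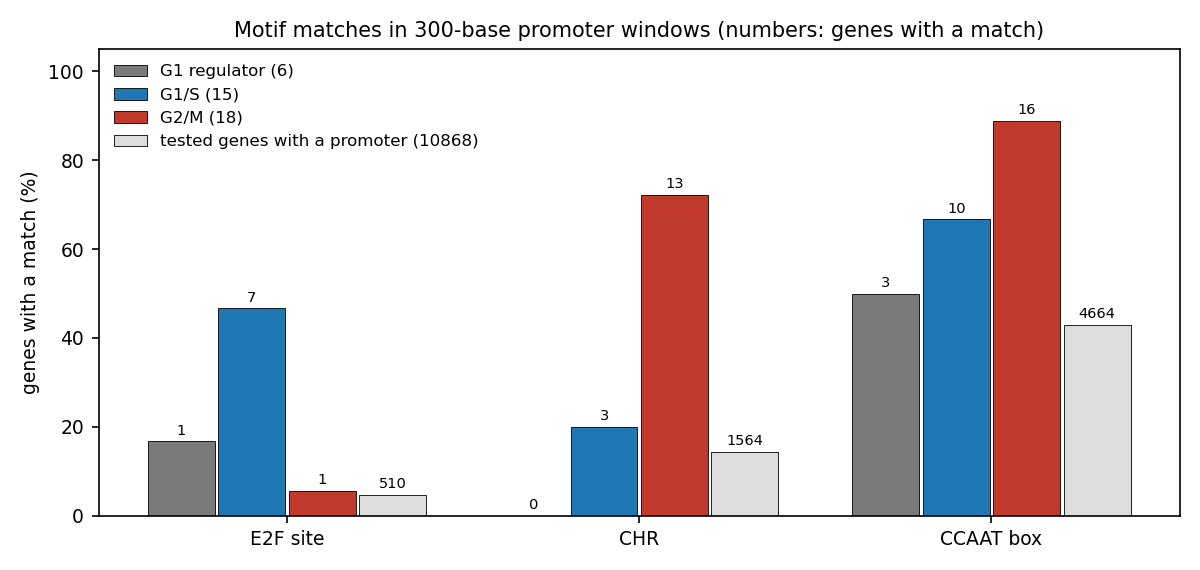
Share of genes (y axis, percent) with a match to each of 3 motifs (x axis) in any 300-base promoter window. Sets are 6 G1 regulators, 15 G1/S genes, 18 G2/M genes and 10868 tested genes, with the number of matching genes above each bar. The E2F bar is tallest for G1/S genes (46.7%) and the CHR bar is tallest for G2/M genes (72.2%).

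The 7 windows below are selected examples of this split of letters, for genes whose values follow. By the counts above, not every gene of a class has its motif in a window, and 3 of 15 G1/S genes have a CHR. The first 4 belong to G2/M genes and the last 3 to G1/S genes. Each runs 5′ to 3′ on the gene's strand from 170 bases before to 20 bases after the start, from RefSeq GRCm38.p6, and capitals mark every E2F site, CHR (TTTGAA) and CCAAT box (CCAAT or ATTGG).
Mki67, chr7:135716360-135716549, minus strand: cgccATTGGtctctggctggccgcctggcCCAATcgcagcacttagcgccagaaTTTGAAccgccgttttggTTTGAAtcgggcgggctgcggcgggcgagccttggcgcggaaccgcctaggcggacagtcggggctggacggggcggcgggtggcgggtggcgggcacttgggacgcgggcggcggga
Ccnb2, chr9:70421535-70421724, minus strand: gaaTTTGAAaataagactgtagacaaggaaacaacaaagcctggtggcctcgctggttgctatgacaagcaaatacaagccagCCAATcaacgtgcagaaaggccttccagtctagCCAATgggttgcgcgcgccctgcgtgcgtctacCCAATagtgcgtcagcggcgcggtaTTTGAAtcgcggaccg
Kif23, chr9:61946780-61946969, minus strand: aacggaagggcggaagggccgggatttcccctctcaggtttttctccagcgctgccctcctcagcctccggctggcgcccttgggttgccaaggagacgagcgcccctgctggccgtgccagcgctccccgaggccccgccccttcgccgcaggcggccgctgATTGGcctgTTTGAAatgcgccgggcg
Cdk1, chr10:69352893-69353082, minus strand: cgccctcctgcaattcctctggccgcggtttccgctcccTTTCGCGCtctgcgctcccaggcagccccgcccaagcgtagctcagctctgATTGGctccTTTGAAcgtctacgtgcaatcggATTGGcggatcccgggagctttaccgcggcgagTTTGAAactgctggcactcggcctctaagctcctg
Mcm5, chr8:75109339-75109528, plus strand: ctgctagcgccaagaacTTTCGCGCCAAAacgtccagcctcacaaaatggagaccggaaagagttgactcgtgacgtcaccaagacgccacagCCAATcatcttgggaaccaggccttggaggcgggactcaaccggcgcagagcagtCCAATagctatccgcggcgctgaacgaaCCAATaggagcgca
Mcm6, chr1:128359686-128359875, minus strand: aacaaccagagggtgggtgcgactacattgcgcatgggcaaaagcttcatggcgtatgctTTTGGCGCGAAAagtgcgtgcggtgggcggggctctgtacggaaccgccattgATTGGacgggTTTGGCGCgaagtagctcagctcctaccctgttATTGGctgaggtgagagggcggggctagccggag
Cdc6, chr11:98907981-98908170, plus strand: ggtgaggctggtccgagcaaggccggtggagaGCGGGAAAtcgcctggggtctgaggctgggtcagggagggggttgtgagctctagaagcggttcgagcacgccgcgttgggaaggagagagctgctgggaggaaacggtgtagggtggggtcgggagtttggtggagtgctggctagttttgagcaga

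Of the 23 G2/M genes, 13 rose and 0 fell in mCherry-positive relative to mCherry-negative cells, in the mean over the 3 vectors (edgeR's quasi-likelihood test, adjusted p under 0.05 over all 16544 genes). The log2 fold changes of all 23 had a median of 0.37. Among G1/S genes 4 of 19 rose and 0 fell, with a median of 0.11. The 8 G1 regulators split, with 2 higher and 2 lower and a median of 0.01. Together 19 of the 50 genes rose and 2 fell, against a background of 17.6% of all tested genes higher and 16% lower, and an all-gene median of -0.03. In this fit the G1/S share of 21.1% higher was close to the background and the G2/M share of 56.5% was above it, as a description of counts without a test of the list. All 23 G2/M genes had a positive log2 fold change, as did 17 of 19 G1/S genes and 4 of 8 G1 regulators, and these sign counts were the same with DESeq2's size factors in place of TMM.

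Libraries of a litter resembled each other, so the litter block matters for these counts. With litter as a term, 31 of the 50 genes rose and 4 fell, against a background of 22.2% higher and 23.5% lower. The G2/M genes then had 21 of 23 higher, all but Bub1b and Ube2c. The G1/S genes had 8 higher and 1 lower, and the G1 regulators 2 higher and 3 lower. With litter in the fit the G1/S share of 42.1% higher was thus above its background too, and the G2/M share was 91.3%. A term for each of the 9 cultures, chosen after seeing the data, gave 31 higher and 4 lower too, against 21.5% and 22.5%.

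**Figure D2:**
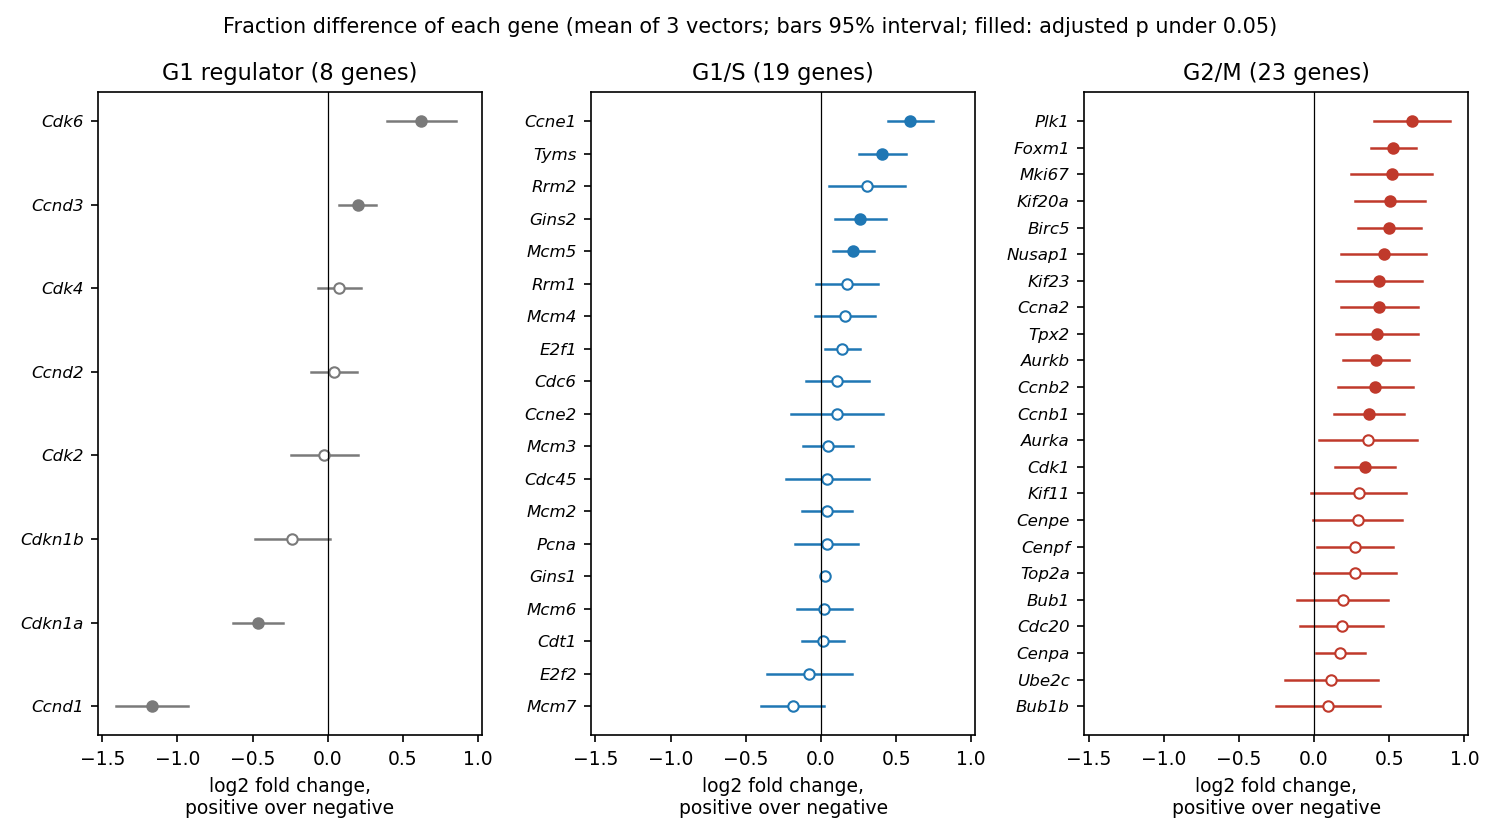
log2 fold change, positive over negative, mean of the 3 vectors (x axis), for each of the 50 genes (rows, sorted within class). Points are edgeR estimates, bars 95% intervals and filled points adjusted p under 0.05. All 23 G2/M points lie above 0, and Ccnd1 lies farthest below it at -1.17. Gins1 has no bar, because the interval could not be derived for it.

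Within the G1 regulators, the D-type cyclins, which activate Cdk4 and Cdk6, went different ways. Ccnd1 (ENSMUSG00000070348) lay at 171, 188 and 231 CPM (lowest, median and highest of 9 libraries) in positive cells, against 312, 435 and 570.4 CPM in negative cells. The fractions did not overlap, and Ccnd1 was lower in the positive fraction of 9 of 9 cultures. Its log2 fold change was -1.17 ± 0.11 (SE; edgeR, adjusted p = 2.25e-07), which is 0.444-fold. Of the 50 genes, Ccnd1 alone had all 9 positive libraries below all 9 negative ones. That share was close to the background of 2.06% of tested genes. Here and below, ranges, overlaps and counts of cultures use deposited CPM without TMM scaling, whereas the log2 fold changes use TMM scaling. Ccnd3 was at 289, 334 and 359 CPM in positive cells, against 240.5, 277 and 305 CPM in negative cells. Its ranges overlapped, but it was higher in 9 of 9 cultures, with a log2 fold change of 0.20 ± 0.06 (edgeR, adjusted p = 0.0122). For Ccnd2 the log2 fold change was 0.04 with a 95% interval of -0.11 to 0.20.

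The kinases of G1 also differed. Cdk6, a partner of the D cyclins, lay at 43.8, 58.8 and 96.5 CPM in positive cells, against 30.9, 38.1 and 45.5 CPM in negative cells. The lowest positive libraries overlapped the highest negative one, and 9 of 9 cultures were higher in the positive fraction, with a log2 fold change of 0.62 ± 0.11 (edgeR, adjusted p = 0.000231). Its highest value came from the Mylk-shRNA positive library of litter 2. Cdk4, the other partner of the D cyclins, had a log2 fold change of 0.08 (95% interval -0.07 to 0.22), and Cdk2, the partner of cyclin E, one of -0.02 (-0.25 to 0.20).

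Both CDK inhibitors in the set had negative log2 fold changes, whereas the CDK inhibitors tested outside the set, given further below, rose. Cdkn1a, which encodes the p53-induced inhibitor p21, lay at 37.8, 43.5 and 55.1 CPM in positive cells, against 45.0, 60.1 and 68.1 CPM in negative cells. It was lower in the positive fraction of 9 of 9 cultures although the ranges overlapped, with a log2 fold change of -0.46 ± 0.08 (edgeR, adjusted p = 0.000152). Cdkn1b, which encodes p27, lay at 36.4, 48.6 and 66.5 CPM in positive cells, against 35.2, 53.4 and 69.5 CPM in negative cells. It did not pass the test (log2 fold change -0.24, adjusted p = 0.141 with edgeR) except with the litter block (adjusted p = 0.00525).

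**Figure D3:**
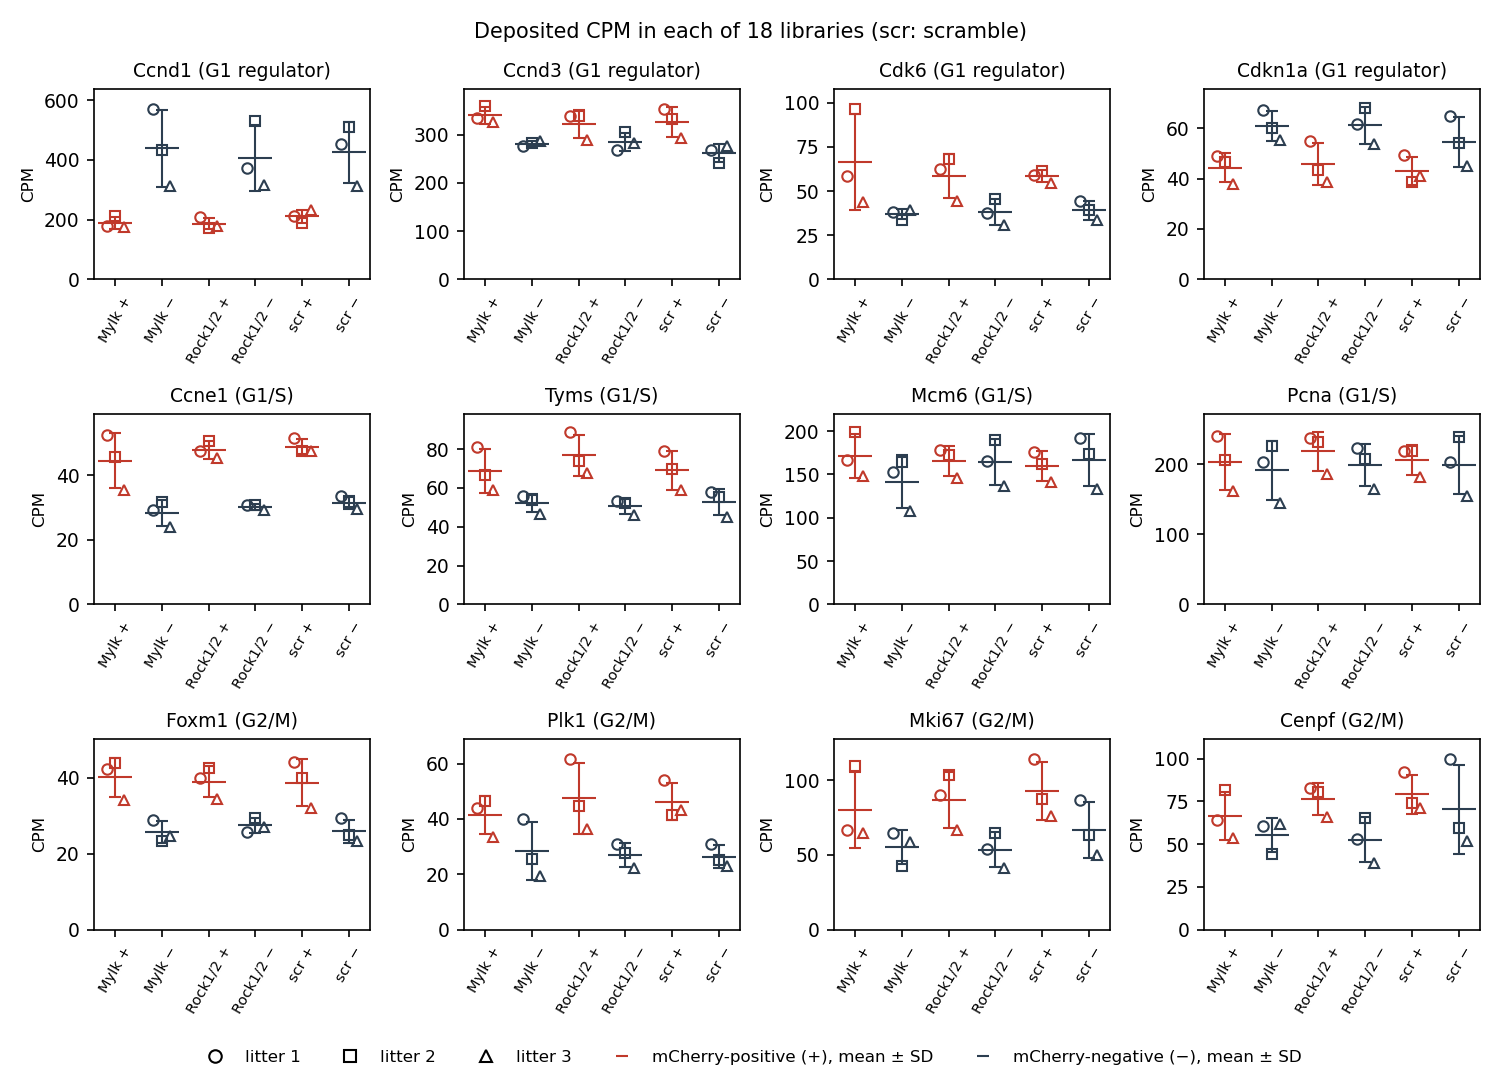
Deposited CPM (y axis, from 0) of 12 genes in each of the 18 libraries by group (x axis), with litters as symbols and horizontal marks with bars as mean ± SD of 3 libraries. Ccnd1 lies lower and Ccne1 and Foxm1 higher in every positive library than in any negative one, while Mcm6 and Pcna overlap.

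Among the G1/S genes, the 4 that rose were Ccne1, Tyms, Gins2 and Mcm5. Ccne1 (ENSMUSG00000002068), a cyclin that activates Cdk2 at the start of S phase, lay at 35.5, 47.5 and 52.6 CPM in positive cells, against 23.9, 30.7 and 33.4 CPM in negative cells. Every positive library was above every negative one, and the log2 fold change was 0.60 ± 0.07 (edgeR, adjusted p = 2.21e-06). Tyms, thymidylate synthase, lay at 58.8, 69.7 and 88.6 CPM in positive cells, against 45.2, 53.3 and 57.7 CPM in negative cells. Its fractions did not overlap either, with a log2 fold change of 0.41 ± 0.08 (edgeR, adjusted p = 0.000312). Complete separation with the positive fraction above was seen in 2 G1/S and 2 G2/M genes, and in 6.65% of all tested genes. Neither Ccne1 nor Tyms had a match to the 3 motifs in its window.

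The remaining G1/S genes encode the replication machinery. Gins2, a subunit of the GINS complex that activates the helicase, lay at 42.5, 50.6 and 63.7 CPM in positive cells, against 36.1, 41.4 and 45.9 CPM in negative cells, with a log2 fold change of 0.26 ± 0.08 (edgeR, adjusted p = 0.0175). Mcm5, 1 of the 6 subunits of the MCM helicase, lay at 57.2, 72.1 and 81.4 CPM in positive cells, against 46.9, 60.8 and 69.7 CPM in negative cells. It was higher in 9 of 9 cultures, with a log2 fold change of 0.22 ± 0.07 (edgeR, adjusted p = 0.0159). Both calls were lost when genes with low counts were kept in the fit (adjusted p = 0.0735 for Gins2 and 0.202 for Mcm5).

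Subunits of the MCM ring did not move as a unit. Mcm6 lay at 141, 166 and 199 CPM in positive cells, against 107, 165 and 192 CPM in negative cells, with a log2 fold change of 0.02 (95% interval -0.16 to 0.20). Mcm2 and Mcm3 had log2 fold changes of 0.04 and 0.05, and Mcm4 one of 0.16. Mcm7 was lower in the positive fraction of 8 of 9 cultures, with a log2 fold change of -0.19 (edgeR, adjusted p = 0.159, and 0.0256 with the litter block). Mcm4 passed with the litter block as well (adjusted p = 0.00429), in the opposite direction to Mcm7.

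The loading factors Cdc6 and Cdt1, which place the MCM ring on origins, had log2 fold changes of 0.11 (95% interval -0.10 to 0.32) and 0.02 (-0.12 to 0.15). Cdc45, which joins the active helicase, had 0.04, and Gins1 had 0.03. Pcna, the sliding clamp of DNA polymerase, lay at 162, 219 and 241 CPM in positive cells, against 145, 204 and 239 CPM in negative cells, with a log2 fold change of 0.04 (-0.17 to 0.25). A copy listed as Pcna-ps2 reached 114 CPM, so Pcna reads may have been split between the copies and its value is uncertain. The other listed copies, of Ccnd3, Ccnb1, Ccnb2, Pcna and Tyms, stayed at or under 0.751 CPM.

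Both subunits of ribonucleotide reductase, which makes deoxynucleotides, were higher in 9 of 9 cultures. Rrm2 had a log2 fold change of 0.31 ± 0.12 (edgeR, adjusted p = 0.0593, and 0.000108 with the litter block). Rrm1 had 0.18 ± 0.10 (adjusted p = 0.189 with edgeR, and 0.00694 with the litter block). E2f1, an activating E2F factor, lay at 47.7, 52.8 and 55.0 CPM in positive cells, against 40.5, 45.9 and 49.7 CPM in negative cells. Its log2 fold change was 0.14 ± 0.06 (edgeR, adjusted p = 0.0561, and 0.0294 with the litter block). E2f2 had a log2 fold change of -0.08 and the second cyclin E gene, Ccne2, one of 0.11, both with intervals that span 0.

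In the G2/M class the mitotic kinase Plk1 (ENSMUSG00000030867) had the highest log2 fold change. It lay at 33.5, 43.9 and 61.5 CPM in positive cells, against 19.5, 25.6 and 39.9 CPM in negative cells. The ranges overlapped through the Mylk-shRNA negative library of litter 1, but within each of 9 cultures the positive fraction was higher, by 0.65 ± 0.12 on the log2 scale (edgeR, adjusted p = 0.000344). Foxm1 (ENSMUSG00000001517), the transcription factor of mitotic genes, lay at 32.0, 40.1 and 44.2 CPM in positive cells, against 23.5, 25.8 and 29.5 CPM in negative cells. The fractions were completely separated, with a log2 fold change of 0.53 ± 0.07 (edgeR, adjusted p = 1.18e-05).

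Birc5 (survivin), a member of the chromosomal passenger complex, lay at 86.7, 98.5 and 121 CPM in positive cells, against 48.9, 67.2 and 84.3 CPM in negative cells. Its fractions were also separated, with a log2 fold change of 0.50 ± 0.10 (edgeR, adjusted p = 0.000708). Aurkb, the kinase of the same complex, had 0.41 ± 0.10 (edgeR, adjusted p = 0.00491). Neither Birc5 nor Nusap1 had a match to the 3 motifs in its window, although both rose.

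The mitotic cyclins and their kinase moved together with these. Ccna2, Ccnb2 and Ccnb1 had log2 fold changes of 0.43, 0.41 and 0.37, and Cdk1, which they activate, 0.34 ± 0.10, all past the test and each higher in 9 of 9 cultures. Cdk1 lay at 132, 161 and 173 CPM in positive cells, against 81.7, 124 and 145 CPM in negative cells. Its window above was the one G2/M window of the 18 to hold an E2F site, beside 2 CHR matches. Aurka, the spindle pole kinase, had 0.36 ± 0.16 (adjusted p = 0.0868 with edgeR, and 1.31e-05 with the litter block).

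Spindle and cytokinesis genes all had positive values. Kif20a, a kinesin of the central spindle, lay at 52.1, 74.4 and 80.2 CPM in positive cells, against 33.9, 47.7 and 56.5 CPM in negative cells, with a log2 fold change of 0.51 ± 0.11 (edgeR, adjusted p = 0.00146). Nusap1, a spindle microtubule binder, had 50.2, 74.1 and 79.0 CPM in positive cells, against 31.0, 55.5 and 60.9 CPM in negative cells, and a log2 fold change of 0.46 ± 0.13 (edgeR, adjusted p = 0.0135). Kif23, another central spindle kinesin, and Tpx2, an activator of Aurka, rose by 0.43 and 0.42 on the log2 scale. Kif11, the motor that separates spindle poles, had 0.30 ± 0.15 and passed only with the block (edgeR, adjusted p = 0.143 without litter and 5.39e-05 with it).

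Mki67, the gene of the proliferation marker Ki-67, lay at 64.3, 87.5 and 114 CPM in positive cells, against 41.3, 58.8 and 86.5 CPM in negative cells. It was higher in 9 of 9 cultures, with a log2 fold change of 0.52 ± 0.13 (edgeR, adjusted p = 0.00458). Top2a, the topoisomerase that untangles chromosomes, lay at 203 to 319 CPM in positive cells and 144 to 319 CPM in negative cells. Its log2 fold change of 0.27 did not pass without litter in the fit (edgeR, adjusted p = 0.124, and 0.00164 with it).

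Of the 7 kinetochore, checkpoint and anaphase genes, 0 passed with edgeR without the litter block, and 5 with it. Cenpe and Cenpf, kinetochore motor and matrix proteins, had log2 fold changes of 0.29 and 0.27. Bub1 and Bub1b, kinases of the spindle checkpoint, had 0.19 and 0.09. Cenpa, the centromeric histone, lay at 135 to 171 CPM in positive cells and 101 to 152 CPM in negative cells, with a log2 fold change of 0.18 ± 0.08 (edgeR, adjusted p = 0.0868, and 0.0202 with the litter block). Cdc20, an activator of the anaphase-promoting complex, had 0.18 ± 0.13 (edgeR, adjusted p = 0.306, and 0.0164 with the litter block). Ube2c, the ubiquitin-conjugating enzyme of that complex, lay at 122, 137 and 186 CPM in positive cells, against 73.4, 142 and 176 CPM in negative cells, with a log2 fold change of 0.12 (95% interval -0.20 to 0.43).

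Taken culture by culture, 19 of 23 G2/M genes, 6 of 19 G1/S genes and 2 of 8 G1 regulators had a higher CPM in the positive fraction of all 9 cultures, against a background of 15.2% of tested genes. Of the G1 regulators, Ccnd1 and Cdkn1a were lower in all 9, against a background of 7.59%. These signs use deposited CPM without TMM scaling. Over all genes they leaned to higher (15.2% against 7.59%), more than the edgeR calls with TMM did (17.6% against 16%). Some ratios were close to 0, such as a log2 ratio of 0.00079 for Top2a in the scramble-shRNA culture of litter 1. How many signs would hold with TMM scaling was not tested.

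The contrast of the classes was also followed in each library as a class level, the mean over the class of log2 CPM with TMM scaling. Since counts were not divided by gene length, a class level means something only against the same class in another library. The G2/M level was higher in the positive fraction of every culture, by 0.23 to 0.49, and the G1/S level by 0.0024 to 0.30. The G1/S minus G2/M level was -0.32 ± 0.08 in Mylk-shRNA positive and -0.11 ± 0.16 in Mylk-shRNA negative libraries (SD, n = 3 each). It was -0.33 ± 0.15 in Rock1/2-shRNA positive against -0.04 ± 0.15 in Rock1/2-shRNA negative libraries, and -0.32 ± 0.11 in scramble-shRNA positive against -0.10 ± 0.14 in scramble-shRNA negative ones. Within a culture the positive value was the lower one in 9 of 9 cases, by 0.080 to 0.37, as a description without a test.

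**Figure D4:**
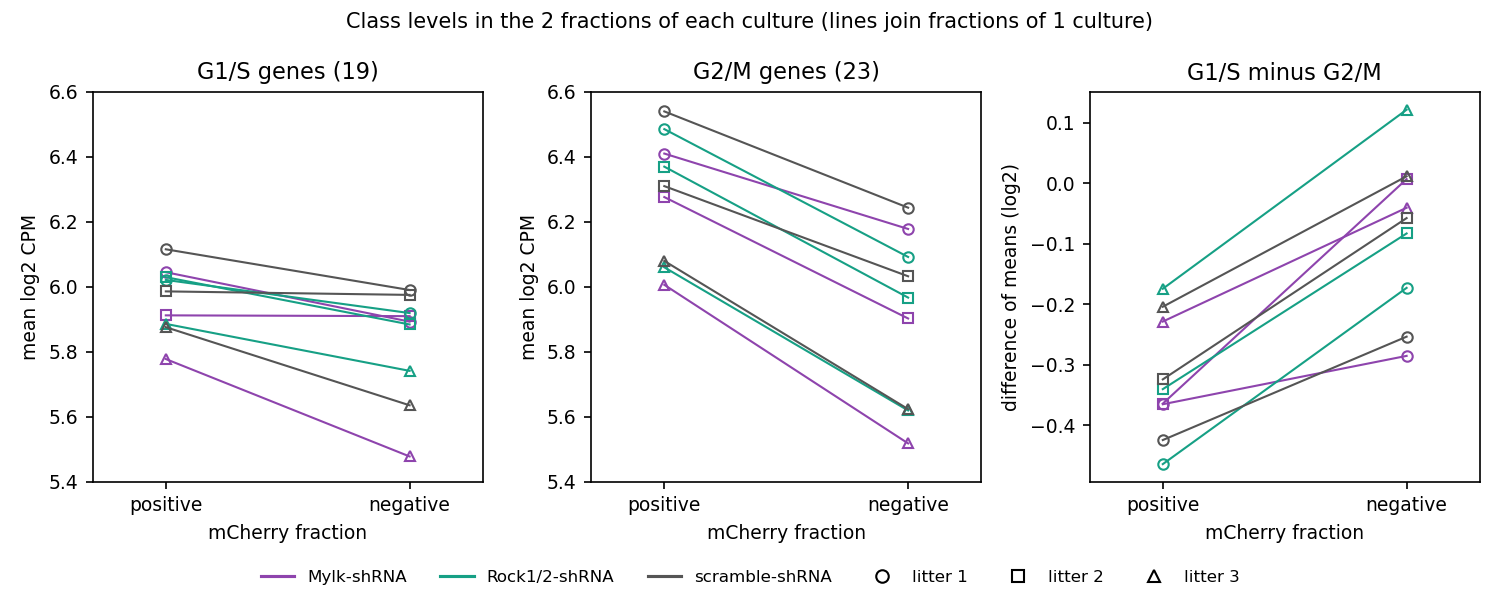
Mean log2 CPM of the 19 G1/S genes (left), of the 23 G2/M genes (middle) and their difference (right) in the positive and negative fraction of each of 9 cultures, with lines joining the fractions of 1 culture. Every G2/M line falls toward the negative fraction, every difference rises toward it, and litter 3 (triangles) has the lowest G2/M levels in each fraction.

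The fractions differed in more than the cell cycle. All 12 macrophage markers were higher in the positive fraction, with a summed level of 249 to 526 CPM in positive and 8.63 to 17.8 CPM in negative libraries, where C1qa, Adgre1 and Fcgr1 reached 0 in some libraries. All 12 stromal markers were also higher, at 5760 to 9080 CPM summed in positive and 3672 to 4526 CPM in negative libraries, as were 6 of 7 smooth muscle and pericyte markers and all 5 tested erythroid markers of 8 listed. Conversely, 7 of 8 tested nephron progenitor markers, 7 of 9 ureteric markers and 6 of 10 endothelial markers were lower, with 1 progenitor and 2 endothelial markers higher. Of the 10 kidney markers, 8 were lower. Podocyte markers split 2 higher to 1 lower of 4 tested, and 1 of 7 tested proximal tubule markers was lower. Immediate early and heat shock genes, which respond to tissue digestion, summed to 814 to 4340 CPM in positive and 666 to 3149 CPM in negative libraries, with 0 of 9 higher and 1 lower. With the litter block 2 of these 9 were higher (Egr1 by 0.38 and Fosb by 0.52 on the log2 scale). The 2 lower ones were the heat shock genes Hspa1a and Hspa1b. The block also gave 3 higher and 1 lower of 7 proximal tubule markers, and 9 of 10 kidney, 8 of 9 ureteric and 7 of 10 endothelial markers lower. In bulk RNA, more cells of a type and more RNA per cell cannot be told apart, and the part of cell makeup or of library depth in the cell cycle differences was not tested.

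Other genes of the same pathways, from lists chosen with earlier results of these data known, are counted beside the same background of 17.6% higher and 16% lower. Of 62 other mitosis genes, 40 rose and 0 fell, and the median was 0.34 on the log2 scale. The smallest p-values belonged to Cdc25b, a phosphatase that activates Cdk1 (0.77 ± 0.09; edgeR, adjusted p = 1.07e-06), and to Cenpm, Nuf2 and Prc1, parts of the kinetochore and the central spindle, with log2 fold changes of 0.52, 0.66 and 0.57. Of 52 other replication and S phase genes, 8 rose and 3 fell, with a median of 0.09. The leading one was Tk1, thymidine kinase, at 37.9 to 50.0 CPM in positive and 15.2 to 24.8 CPM in negative cells (log2 fold change 0.92 ± 0.08; edgeR, adjusted p = 3.26e-08). Rpa1 and Pola1, a single-strand binding protein and a polymerase subunit, rose by 0.44 and 0.39, while Msh6, a mismatch repair gene, fell by 0.31 on the log2 scale.

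Of 21 tested CDK inhibitors and p53 targets outside the set (23 listed), 5 rose and 7 fell. No CDK inhibitor was among the 7 that fell. The CDK inhibitor genes Cdkn1c and Cdkn2d rose by 0.38 and 0.30 on the log2 scale (edgeR, adjusted p = 0.00579 and 0.0376). Mean levels of Cdkn1c were 583 CPM in positive and 432 CPM in negative cells. Cdkn2c, which encodes the Cdk4 and Cdk6 inhibitor p18, lay at 19.1 to 32.0 CPM in positive and 6.64 to 11.8 CPM in negative cells, with a log2 fold change of 1.41 ± 0.12 (edgeR, adjusted p = 2.50e-08). Plk2 and Bbc3, p53 targets like Cdkn1a, fell by 0.57 and 0.56 on the log2 scale, while Phlda3, another p53 target, rose by 0.44. Among 13 pocket protein, E2F partner and MuvB genes, Rbl2, the pocket protein p130, rose by 0.26, and Tfdp2, E2f5 and E2f3 fell by 0.52, 0.37 and 0.17 on the log2 scale.

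The fractions were also compared within each vector, where fewer genes passed. With the Mylk-shRNA vector 3 of the 50 genes rose (Ccne1, Cdk6, Foxm1) and 2 fell (Ccnd1, Cdkn1a), against a background of 8.07% higher and 5.14% lower. With the Rock1/2-shRNA vector 4 rose (Ccne1, Tyms, Plk1, Foxm1) and 2 fell (Ccnd1, Cdkn1a), against 6.94% and 4.3%. With the scramble-shRNA vector 4 rose (Ccne1, Plk1, Birc5, Foxm1) and 1 fell (Ccnd1), against 7.43% and 4.85%. Without a block, these counts as shares of the 50 genes were close to or below their backgrounds. The litter block raised these counts to 19 higher and 3 lower for Mylk-shRNA (background 13.2% and 11.1%), 22 and 2 for Rock1/2-shRNA (11.3% and 9.05%), and 17 and 2 for scramble-shRNA (12.4% and 10.8%). With the culture term they were 19 and 3 (11.9% and 10.3%), 22 and 2 (10.2% and 8.12%), and 15 and 2 (11.5% and 9.49%).

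Ccnd1, Ccne1 and Foxm1 passed with all 3 vectors. Foxm1 had 42.3, 43.9 and 34.2 CPM in Mylk-shRNA positive libraries of litters 1, 2 and 3, against 28.9, 23.5 and 24.7 CPM in Mylk-shRNA negative ones. In Rock1/2-shRNA libraries Foxm1 had 40.1, 42.5 and 34.5 CPM in the positive fraction, against 25.8, 29.5 and 27.0 CPM in the negative fraction. In scramble-shRNA libraries it had 44.2, 39.9 and 32.0 CPM in the positive fraction, against 29.4, 24.9 and 23.5 CPM in the negative fraction. The G2/M medians were 0.38 for Mylk-shRNA, 0.41 for Rock1/2-shRNA and 0.35 for scramble-shRNA, and the G1/S medians 0.17, 0.07 and 0.10, against all-gene medians of -0.03, -0.02 and -0.02.

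Whether the fraction difference depended on the shRNA was tested as an interaction, and 0 of the 50 genes and 0 of 16544 passed (edgeR, with or without the litter block, and DESeq2). At an unadjusted p under 0.05, edgeR gave 0 of the 50 genes in both interactions, against a background of 1.31% of genes for Mylk-shRNA minus scramble-shRNA and 0.876% for Rock1/2-shRNA minus scramble-shRNA. With the litter block edgeR gave 1 of the 50 at that level for Mylk-shRNA, Mcm6, against 4.88% of all genes, and 0 for Rock1/2-shRNA, against 2.64%. An interaction that did not pass does not show that the fraction difference was equal between vectors. The smallest p without the block belonged to Gins1 in each, at -0.35 (95% interval -0.72 to 0.03) and -0.31 (-0.69 to 0.07). For the DNA licensing factor Cdt1 the interaction with Mylk-shRNA was 0.26 (-0.08 to 0.60), and for Cenpf the one with Rock1/2-shRNA was 0.37 (-0.24 to 0.98). The value of Cenpf was 0.062 without scramble-shRNA negative replicate 1 (litter 1) and 0.54 at most without 1 library. That of Cdt1 was 0.13 without Mylk-shRNA negative replicate 3.

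The knockdown vectors were compared with scramble within each fraction. Levels of Mylk, Rock1 and Rock2 overlapped between knockdown and scramble libraries, so these are comparisons of vectors and not of a shown loss of target RNA. In these 4 comparisons and in Mylk-shRNA against Rock1/2-shRNA, 0 of the 50 genes and 0 of all genes passed (edgeR, edgeR with the litter block, and DESeq2). At an unadjusted p under 0.05, edgeR gave 0 of the 50 genes in each, against 1.56% of all genes in Mylk-shRNA positive over scramble-shRNA positive, 0.876% in Rock1/2-shRNA positive over scramble-shRNA positive, and 1.72% and 1.21% in the negative fraction. Mylk-shRNA over Rock1/2-shRNA had 1.2% in the positive and 0.731% in the negative fraction. DESeq2 gave 1 of the 50 genes at that level, Cenpf in Rock1/2-shRNA negative over scramble-shRNA negative, against 0.919% of all genes there. With the litter block edgeR gave more genes at an unadjusted p under 0.05, among the 50 as among all genes, and those of the 50 were all lower. In the positive fraction they were Cdc6 for Mylk-shRNA over scramble-shRNA (4.01% of all genes), 0 for Rock1/2-shRNA over scramble-shRNA (2.13%) and Mcm5 for Mylk-shRNA over Rock1/2-shRNA (2.88%). In the negative fraction they were Mcm6 and Bub1b for Mylk-shRNA over scramble-shRNA (6.35%), Cdk2, Cenpe and Cenpf for Rock1/2-shRNA over scramble-shRNA (3.89%) and Mcm6 for Mylk-shRNA over Rock1/2-shRNA (3.23%). For Mylk-shRNA positive over scramble-shRNA positive the median SE of the 50 log2 fold changes without the block was 0.19. After adjustment over all genes a call needs a difference of several SE, so smaller effects could have been missed.

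**Figure D5:**
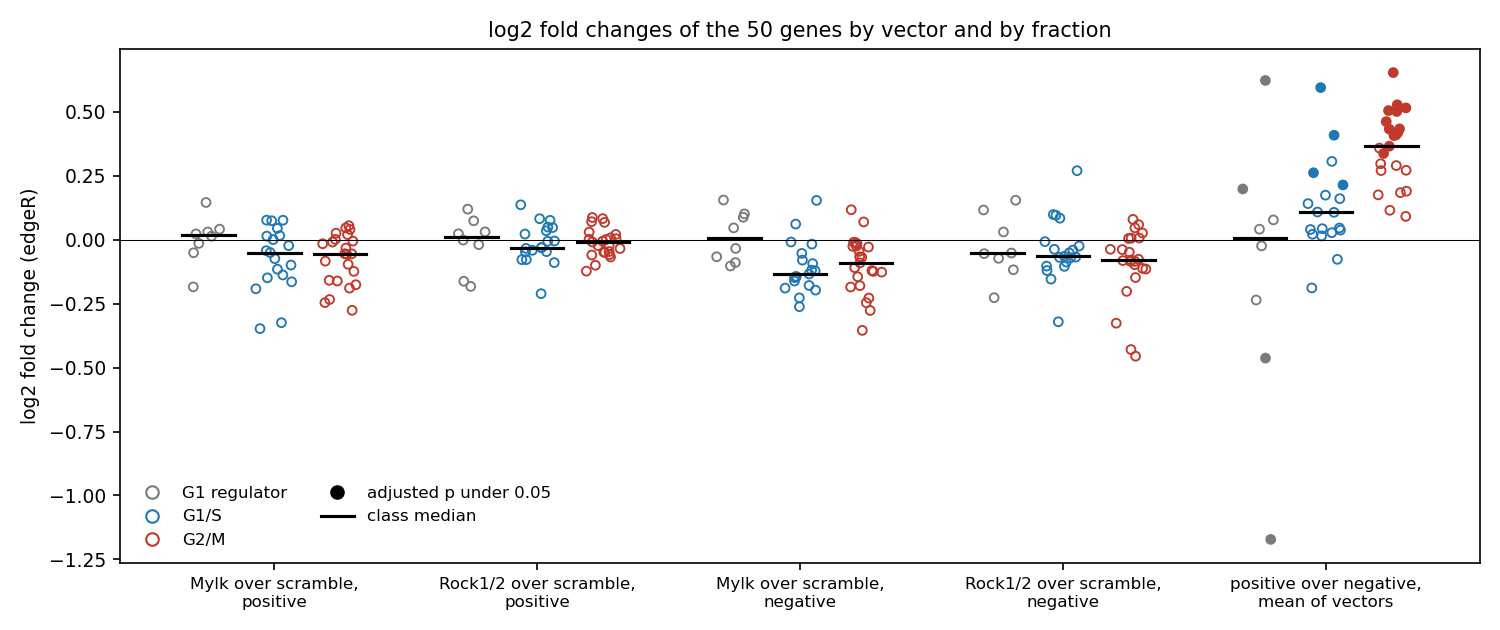
log2 fold changes (y axis) of the 50 genes in 4 comparisons of a knockdown vector with scramble and in the fraction comparison (x axis), coloured by class, with black bars as class medians and filled points as adjusted p under 0.05. Filled points appear only in the fraction comparison, and the G2/M median there is 0.37.

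The genes with the 2 smallest p-values in each comparison are given next, starting with the positive fraction. Cdc6 had 21.2, 17.3 and 17.2 CPM in Mylk-shRNA positive libraries, against 26.2, 21.5 and 21.7 CPM in scramble-shRNA positive libraries of litters 1, 2 and 3. Each was lower than its litter partner, with a log2 fold change of -0.32 (95% interval -0.70 to 0.05; edgeR, adjusted p = 1.00). Gins1 had 13.97, 16.9 and 15.8 CPM in Mylk-shRNA positive libraries and 16.3, 14.8 and 14.2 CPM in Rock1/2-shRNA positive libraries, against 17.2, 15.8 and 19.7 CPM in scramble-shRNA positive ones. The 3 groups overlapped, with log2 fold changes of -0.19 and -0.21 over scramble, or -0.11 and -0.13 without scramble-shRNA positive replicate 3.

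Tyms had 88.6, 74.0 and 67.8 CPM in Rock1/2-shRNA positive libraries, against 78.8, 69.7 and 58.8 CPM in scramble-shRNA positive ones. The groups overlapped, with a log2 fold change of 0.14 (95% interval -0.14 to 0.41). It was 0.039 without Rock1/2-shRNA positive replicate 1 and 0.23 without scramble-shRNA positive replicate 1. Between the knockdowns, Mcm5 had 75.1, 71.9 and 57.2 CPM in Mylk-shRNA positive libraries, against 81.4, 80.1 and 70.9 CPM in Rock1/2-shRNA positive ones, a log2 fold change of -0.20 (-0.44 to 0.04). Without Mylk-shRNA positive replicate 3 it was -0.11. Cdc6 differed by -0.24 (-0.61 to 0.14) between the same groups, or by -0.15 without Mylk-shRNA positive replicate 2.

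In the negative fraction Cenpf had 60.7, 44.0 and 61.6 CPM in Mylk-shRNA negative libraries and 53.3, 65.5 and 38.9 CPM in Rock1/2-shRNA negative libraries, against 100.1, 59.4 and 51.7 CPM in scramble-shRNA negative ones. The scramble-shRNA library of litter 1 stood above all others, and the remaining values overlapped. The log2 fold changes were -0.35 (95% interval -0.78 to 0.08) for Mylk-shRNA and -0.43 ± 0.20 (SE) for Rock1/2-shRNA. Without that library they were -0.05 and -0.12.

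Cenpe had 50.5, 54.1 and 29.5 CPM in Rock1/2-shRNA negative libraries, against 92.9, 54.2 and 35.2 CPM in scramble-shRNA negative ones. The same library of litter 1 was high, and the log2 fold change was -0.46 (95% interval -0.96 to 0.05), or -0.05 without it. Cdt1 had 72.0, 77.2 and 53.5 CPM in Mylk-shRNA negative libraries, against 82.9, 77.3 and 70.4 CPM in scramble-shRNA negative ones, a log2 fold change of -0.18 (-0.42 to 0.06). Mcm6 had 153, 165 and 107 CPM in Mylk-shRNA negative libraries, against 166, 189 and 137 CPM in Rock1/2-shRNA negative ones, a log2 fold change of -0.20 (-0.52 to 0.11). E2f1 differed by -0.10 (-0.30 to 0.09) between those groups. Without Mylk-shRNA negative replicate 3 these values were -0.05 for Cdt1, -0.04 for Mcm6 and -0.05 for E2f1.

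Most G1/S and G2/M genes had small negative values against scramble in the negative fraction. For Mylk-shRNA negative over scramble-shRNA negative, 17 of 19 G1/S and 21 of 23 G2/M genes were below 0, with medians of -0.13 and -0.09 against an all-gene median of 0.01. For Rock1/2-shRNA negative over scramble-shRNA negative, 15 of 19 and 16 of 23 were below 0 (18 of 23 with DESeq2's size factors), with medians of -0.06 and -0.08. In the positive fraction the counts below 0 were 12 of 19 and 17 of 23 for Mylk-shRNA and 12 of 19 and 13 of 23 for Rock1/2-shRNA, with medians from -0.01 to -0.05. DESeq2's size factors made these 13 of 19 and 18 of 23 for Mylk-shRNA and 12 of 19 and 16 of 23 for Rock1/2-shRNA. Both knockdowns share the scramble libraries, so their values are not independent of each other, and genes of a class move together within a library.

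Averaged over both fractions, Mylk-shRNA over scramble-shRNA gave 1 gene of the 50 at an unadjusted p under 0.05, against a background of 1.97%, and Rock1/2-shRNA over scramble-shRNA gave 0, against 1.25%. That gene was Cenpf, with a log2 fold change of -0.31 (edgeR, unadjusted p = 0.0447), and it did not pass adjustment. It was -0.16 without scramble-shRNA negative replicate 1. The next were Mcm5 for Mylk-shRNA, at -0.14 (95% interval -0.31 to 0.03), and Cenpe and Cenpf for Rock1/2-shRNA, at -0.29 (-0.65 to 0.07) and -0.24 (-0.55 to 0.06). Without scramble-shRNA negative replicate 1 the last 2 were -0.09 each, and Mcm5 was -0.09 without Mylk-shRNA negative replicate 3. With the litter block 3 genes lay under that p for Mylk-shRNA (Cdc6, Mcm5 and Cenpf, against 5.52% of all genes) and 2 for Rock1/2-shRNA (Cdk2 and Cenpe, against 3.05%), all lower and none past adjustment.

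Within litters, both class levels of Mylk-shRNA libraries lay below those of scramble-shRNA libraries in 3 of 3 litters of each fraction. In the positive fraction the Mylk-shRNA minus scramble-shRNA differences of litters 1, 2 and 3 were -0.071, -0.074 and -0.098 for the G1/S level and -0.13, -0.034 and -0.074 for the G2/M level (log2 scale). In the negative fraction they were -0.097, -0.065 and -0.16 for the G1/S level and -0.066, -0.13 and -0.11 for the G2/M level. Rock1/2-shRNA minus scramble-shRNA took both signs among litters for both levels in the positive fraction and for the G1/S level in the negative fraction. Its G2/M differences in the negative fraction were -0.15, -0.066 and -0.0041. These differences are given as a description without a test, and the scramble libraries are shared. The G1/S minus G2/M level over scramble took both signs among the 3 litters for each knockdown in each fraction.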

How the data were processed

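In 1 table of the 18 libraries, the authors deposited an estimated count per gene and its CPM, which is that count over the column total, as checked on the table. Per the submitters' processing notes, the tools were FastQC 0.12.1, MultiQC 1.32, fastp 0.24.0, STAR 2.7.11, SAMtools 1.22.1 and featureCounts (Subread 2.1.1), with GRCm39. Not given in the sources used here: annotation, strand use and the sharing of multiply mapped reads. The estimated counts were rounded, 92 ERCC spike-ins were removed, and filterByExpr (count 10, total 15) kept 16544 genes. The edgeR 4.0.16 quasi-likelihood test (robust, TMM, 1 mean per group, 12 residual degrees of freedom, R 4.3.3) was adjusted by Benjamini-Hochberg over all genes in each of 14 comparisons. It was also run on simulated counts, which held no litter effect, so that run does not bear on the choice of litter block. SEs were derived from the F statistic. Per the labels, a replicate number marks a litter. Deviations from group means correlated at 0.237 to 0.639 in 45 same-litter pairs and -0.544 to 0.310 in 90 others, so the numbers pair the samples. No 2 replicates agreed within sampling noise (chi-square per gene at least 4.29). Named genes were, by rule, the smallest p per role, the largest called changes, and the 2 smallest p per vector comparison. DESeq2 1.42.0, DESeq2 size factors, no filter, litter and culture blocks (the latter chosen after seeing the data), compared groups only and left-out libraries were alternatives. The members, lists and tests were chosen with earlier results of these data known.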

Additional observations from a re-analysis of the deposited data

How the results depend on the processing

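The count of the 50 genes called between fractions depended on whether litter was in the fit. With the litter block it was 22 against 5 without for Mylk-shRNA, 24 against 6 for Rock1/2-shRNA, 19 against 5 for scramble-shRNA and 35 against 21 for the mean of vectors. A block by culture, chosen after seeing the data, gave 22, 24, 17 and 35 in the same order. Over all genes the litter block gave 4019 against 2186 calls for Mylk-shRNA, 3369 against 1859 for Rock1/2-shRNA, 3848 against 2032 for scramble-shRNA and 7569 against 5558 for the mean. Compared groups alone gave 3 calls for Mylk-shRNA. Without litter 3, Mylk-shRNA and scramble-shRNA each had 9. Leaving out single libraries gave 3 to 6 calls for Mylk-shRNA, 3 to 8 for Rock1/2-shRNA, 2 to 5 for scramble-shRNA and 20 to 24 for the mean. The low counts came without Mylk-shRNA positive replicate 2 (3 calls), without Rock1/2-shRNA positive replicate 1 or 2 (3 each), without scramble-shRNA positive replicate 1 (2) and without scramble-shRNA negative replicate 2 (3).

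With the median over genes in place of the mean, the G1/S minus G2/M difference of Rock1/2-shRNA positive over scramble-shRNA positive was 0.173, against -0.01. E2f1 in Mylk-shRNA negative over Rock1/2-shRNA negative turned to 4.71e-05 without litter 3, against -0.10. Gins2 had an adjusted p of 0.0765 without litter 3 and 0.0549 without Mylk-shRNA positive replicate 1. The causes were not tested. In comparisons of vectors and in interactions, 0 of the 50 genes passed under any alternative that was run. The blocks changed no call there. With 3 litters, differences of about 1 SE could not have passed.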

Other observations

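The class levels also differed by litter, within both fractions. The G2/M level (mean log2 CPM of 23 genes) of litters 1, 2 and 3 ranged over 6.41 to 6.54, 6.28 to 6.37 and 6.01 to 6.08 in positive libraries, and over 6.09 to 6.24, 5.90 to 6.03 and 5.52 to 5.62 in negative libraries. The ranges of the litters did not overlap within a fraction. The G1/S level averaged 5.998, 5.95 and 5.73 over the 6 libraries of litters 1, 2 and 3. Mitochondrial transcripts made up 3.95 to 9.16% of counts in litter 3 and 2.01 to 4.02% in litters 1 and 2. Their part in the litter difference was not tested.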
